A study of Oryza sativa with 80 samples.

Results

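The comparison set rice (Oryza sativa) leaves that had grown in dry soil against leaves from wet soil, both after a heat shock, in segment 5 of the third leaf. It used 8 of the 80 libraries of the series. The group D40 (4 libraries) came from seedlings whose soil was kept at 1.5 g/g (water to dry soil), a drought that limits growth, and W40 (4 libraries) from soil at 3 g/g, which counts as well-watered. Plants of both groups had spent 30 min at 40 °C before collection, so the controls carried the heat shock too. D30 and W30 were the same soils without heat shock, collected at 30 °C, with 4 libraries each. Per the labels, leaves were taken once fully elongated, at 12 days in drought and 10 days in wet soil, so leaf age and soil water cannot be told apart. Each blade was cut into 7 equal segments, of which the middle 5 were sequenced, and segment 5 lies toward the tip. Each library held matched segments pooled from 3 leaves. No cultivar or genotype is named in the labels used here, and nothing says whether pools came from separate pots, so p-values measure the spread between these pools. The series title concerns what a drought that limits growth does to the response of leaves to heat shock.

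Drying soil raises the hormone abscisic acid. Its receptors then bind and block the clade A PP2C phosphatases, which otherwise hold a family of protein kinases inactive, and the released kinases activate bZIP transcription factors that turn on protective genes such as those of dehydrins and other LEA proteins. Many PP2C genes are themselves switched on by the hormone, as a negative feedback. Heat shock acts by another route, in which heat stress transcription factors switch on chaperones (small heat shock proteins, HSP70, HSP90 and HSP100) that keep damaged proteins from clumping.

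Gene levels are given as CPM, counts scaled to library size with TMM factors, in the order of replicates 1 to 4. The 8 libraries held 56490982 to 114370194 counts each, and library size factors ran from 0.7669 to 1.0853. The labels give a batch. W40 replicate 1 and D40 replicates 1 and 2 were in batch 1, and the other 3 W40 and 2 D40 libraries in batch 2. The batch 1 libraries at 40 °C stood apart. By rank correlation over genes, W40 replicate 1 was as close to the 2 D40 libraries of its batch (0.9828 to 0.986) as the batch 2 W40 libraries were to each other (0.9819 to 0.9929). In batch 2, W40 and D40 were further apart, at 0.9274 to 0.9455. The heat shock label was checked first. Of 67 listed heat loci tested, 55 were higher and 3 lower in W40 than in W30 (of all genes, 12.4% were higher and 14% lower), and 55 were higher and 1 lower in D40 than in D30 (13.8% and 14.9%). The summed level of 10 cytosolic small heat shock protein loci was 2289.5, 21189, 18874 and 22540 CPM in W40 and 2599, 5364, 47325 and 51651 CPM in D40, against 48.3 to 88.4 CPM in the libraries at 30 °C. All heated libraries lay above the unheated ones, and the 3 from batch 1 lay far below the 5 from batch 2.

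The soil water label was checked with 8 PP2C loci, which summed to 173, 180.1, 119 and 150.5 CPM in W40 and 255, 249, 2099 and 1698 CPM in D40. D40 replicates 1 and 2 lay above W40 and far below D40 replicates 3 and 4. Unheated drought libraries of batch 1 did not show this, with PP2C sums of 653 and 625 CPM against 557 and 511 CPM in batch 2. For 6 type A cytokinin response regulators, loci that the hormone cytokinin induces, the sums were 396, 465, 439 and 322 CPM in W40 and 432, 391, 112 and 75.3 CPM in D40. Here D40 replicates 1 and 2 lay inside the range of W40, unlike the 200 and 168 CPM of the batch 1 libraries in D30. Within batch 1 other loci differed in both directions. LOC_Os02g01590 (sucrose list) read 26.7 and 65.1 CPM in D40 against 3.25 CPM in W40. LOC_Os07g05940 (abscisic acid synthesis) read 0.0942 and 0.294 CPM in D40 against 0.408 CPM in W40. Wrong labels of the 3 batch 1 libraries at 40 °C cannot be told apart from a true difference between batches, and neither was tested. Whether the labels are right cannot be told from the files, and every value that uses these libraries takes the labels as given. Results without them are given beside the counts. As leaf blade should, all 8 libraries held high levels of the 17 light reaction loci (94227 to 136710 CPM in sum) and little of 4 dividing cell markers (7.80 to 23.7 CPM, lowest in D40 replicates 3 and 4). In bulk tissue, fewer cells of a type and less RNA per cell cannot be told apart.

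**Figure D1:**
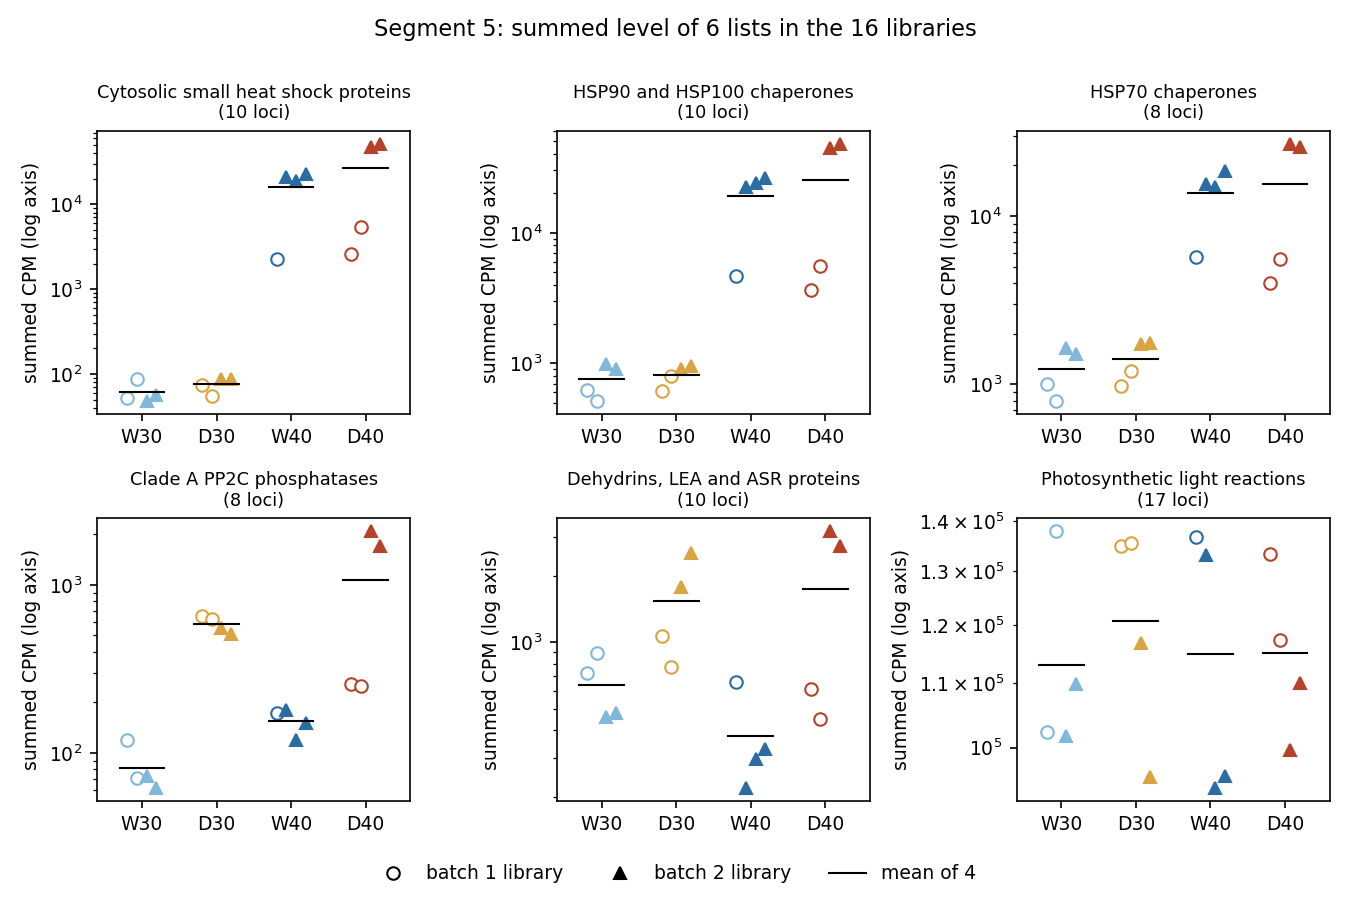
Summed CPM (log axis) of 6 gene lists in the 16 libraries of segment 5, by group. Circles are batch 1, triangles batch 2 and lines the means of 4. In W40 and D40 the batch 1 libraries lie below those of batch 2 for the chaperone lists. For PP2C loci, D40 replicates 1 and 2 (255 and 249 CPM) lie near W40 (119 to 180 CPM) and D40 replicates 3 and 4 at 2099 and 1698 CPM.

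Drought changed many genes in the heated segment. Of 22415 genes tested with edgeR's quasi-likelihood test, with treatment and batch as terms, 1786 (7.97%) had an adjusted p under 0.05 and are referred to as called. Of these, 1112 (4.96% of genes tested) were higher and 674 (3.01%) lower in D40. The excess of higher genes did not hold in all settings, with 622 higher and 679 lower on batch-corrected FPKM + 0.1. The change was over 1 on the log2 scale in either direction for 1239 of them, while the median over all genes tested was -0.00. The 4 libraries of D40 did not overlap those of W40 for 876 of the called genes. Over all genes tested, D40 lay wholly above W40 for 4.2% and wholly below for 4.72%. Genes called higher had a median log2 change of 0.58 within batch 1 and 2.08 within batch 2, and genes called lower had -0.69 and -1.62. These genes were chosen on the same libraries, so the medians are a description. The direction was the same in both batches for 1681 of the 1786. This too is a description, as the choice favours genes whose batches agree. Tested within batches, 30 genes (0.134%, with 0.058% higher and 0.0758% lower) were called in batch 1, where W40 had 1 library, and 7366 (32.9%, with 17.3% higher and 15.5% lower) in batch 2. The difference between the batches was itself called for 1707 genes (7.62%, with 4.76% higher and 2.86% lower in batch 2), 489 of them among the 1786. DESeq2 called 275 genes within batch 1, and edgeR called 0 without D40 replicate 2, 48 without D40 replicate 1, 12 without D40 replicate 3 or 4 and 11 without W40 replicate 4. The batch difference was called for 863 without D40 replicate 1. With both batches, the number called without D40 replicate 3 or 4 was 616 or 569, without W40 replicate 2, 3 or 4 it was 959, 621 or 591, and without the 3 batch 1 libraries at 40 °C, a choice made after seeing the data, it was 6111 (26.7%).

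The genes described next come from 35 lists of 290 locus IDs, of which 272 passed the filter on low counts. The files give IDs without names and no table used here pairs them, so a locus is described by the list it was entered under. Of the 272 loci, 44 (16.2%, against 4.96% of all genes) were higher and 7 (2.57%, against 3.01%) lower. The lists were chosen with earlier results of these data known, so these shares are a description and not a test. The loci came from 10 lists on drought, 7 on heat, 2 on carbon, 4 on photosynthesis, 11 on other processes and 1 on dividing cells. Without the 3 batch 1 libraries at 40 °C, 110 were higher and 26 lower. Without D40 replicate 3 or 4 or W40 replicate 2, 3 or 4, 22 to 26 were higher, and without D40 replicate 1, 69.

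Of the abscisic acid signalling loci, all 8 phosphatases and 3 of 5 bZIP factors were higher and 2 of 5 receptors lower. The shares over all genes tested were 4.96% higher and 3.01% lower. All 8 PP2C loci were higher in D40, with a median log2 change of 3.25. LOC_Os01g40094 read 47.4, 45.4, 26.3 and 34.6 CPM in W40 and 92.7, 95.3, 606 and 495 CPM in D40. Every D40 library was above every W40 library, and replicates 3 and 4 were the highest (log2 change 3.00 ± 0.54 (SE), adjusted p = 0.00588). LOC_Os05g38290 read 1.85, 3.11, 2.88 and 2.96 CPM in W40 and 4.11, 8.74, 169 and 102 CPM in D40. The groups again did not overlap (log2 change 4.50 ± 0.77 (SE), adjusted p = 0.00437). LOC_Os09g15670 read 3.16, 5.24, 4.88 and 5.36 CPM in W40 and 7.93, 4.81, 145 and 134 CPM in D40. D40 replicate 2 fell inside the range of W40, and replicates 3 and 4 lay far above it (log2 change 3.61 ± 0.68 (SE), adjusted p = 0.00712). Within batch 1, both D40 libraries lay above W40 replicate 1. The other 5 PP2C loci changed by 1.42 to 6.89 on the log2 scale, and in 6 of the 8 the groups did not overlap. Over all genes, D40 lay wholly above W40 for 4.2%. Within batch 1 none of the 8 was called (edgeR; 0.134% of all genes) and their median log2 change was 0.83. Within batch 2 all 8 were called with a median of 4.31, and for all 8 the batches differed. Without any of D40 replicates 3 and 4 and W40 replicates 2, 3 and 4, 5 of the 8 were called.

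Of 5 loci for the synthesis of abscisic acid, 2 were higher, beside 4.96% of all genes. LOC_Os03g44380 read 2.92, 0.679, 0.682 and 0.949 CPM in W40 and 15.7, 8.87, 48.6 and 28.1 CPM in D40. The lowest D40 library was well above the highest W40 library, which was replicate 1 (log2 change 4.17 ± 0.73 (SE), adjusted p = 0.00507). LOC_Os07g05940 read 0.408, 2.95, 1.45 and 3.06 CPM in W40 and 0.0942, 0.294, 147 and 60.8 CPM in D40. Only the batch 2 libraries of D40 rose above W40, and both batch 1 libraries lay below all of W40 (log2 change 4.08 ± 1.06 (SE), adjusted p = 0.0321). Among 3 loci for its breakdown, LOC_Os08g36860 was higher. It read 14.8, 5.35, 4.11 and 5.43 CPM in W40 and 22.9, 26.4, 20.1 and 21.7 CPM in D40. The D40 libraries lay close together, without overlap, and the W40 library nearest to them was replicate 1 (log2 change 1.58 ± 0.24 (SE), adjusted p = 0.00237). Of 5 receptor loci, 0 were higher and 2 lower (4.96% and 3.01% of all genes), and the other 3 had fitted changes from -0.78 to 0.46. LOC_Os03g18600 read 24.1, 47.4, 49.4 and 62.97 CPM in W40 and 8.48, 8.03, 1.18 and 0.854 CPM in D40. No library overlapped, and the batch 2 libraries of D40 were the lowest (log2 change -3.45 ± 0.85 (SE), adjusted p = 0.0269). LOC_Os05g39580 had 162 counts in W40, none of them in replicate 1, and 0 in D40, so it was at least 36.7-fold lower against a floor of 3 counts over the group (adjusted p = 0.0441). Both receptor calls were lost without D40 replicate 3 or 4 or W40 replicate 3 or 4, and 1 without W40 replicate 2. Without D40 replicate 3 or 4 or W40 replicate 2, 3 or 4, 1 synthesis locus was called.

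Of 5 bZIP factors of the abscisic acid response, 3 were higher (4.96% of all genes), with a list median of 1.31. LOC_Os02g52780 read 19.7, 31.2, 27.003 and 26.3 CPM in W40 and 25.1, 28.2, 289.7 and 232 CPM in D40. The batch 1 libraries of D40 lay inside the range of W40 and those of batch 2 far above it (log2 change 2.33 ± 0.51 (SE), adjusted p = 0.0152). Those of batch 1 were above W40 replicate 1, the W40 library of their batch. LOC_Os06g10880 read 3.20, 3.35, 3.20 and 3.36 CPM in W40 and 4.21, 3.997, 13.97 and 19.8 CPM in D40. The groups did not overlap, although batch 1 of D40 lay only just above W40 (log2 change 1.65 ± 0.34 (SE), adjusted p = 0.0120). LOC_Os09g28310 read 37.4, 74.2, 44.6 and 56.8 CPM in W40 and 55.2, 54.99, 189 and 208 CPM in D40. Here too the batch 1 libraries of D40 overlapped W40, though they lay above W40 replicate 1 (log2 change 1.31 ± 0.23 (SE), adjusted p = 0.00567). Without D40 replicate 3, D40 replicate 4, W40 replicate 3 or W40 replicate 4, the number called was 2, 1, 2 and 2.

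**Figure D2:**
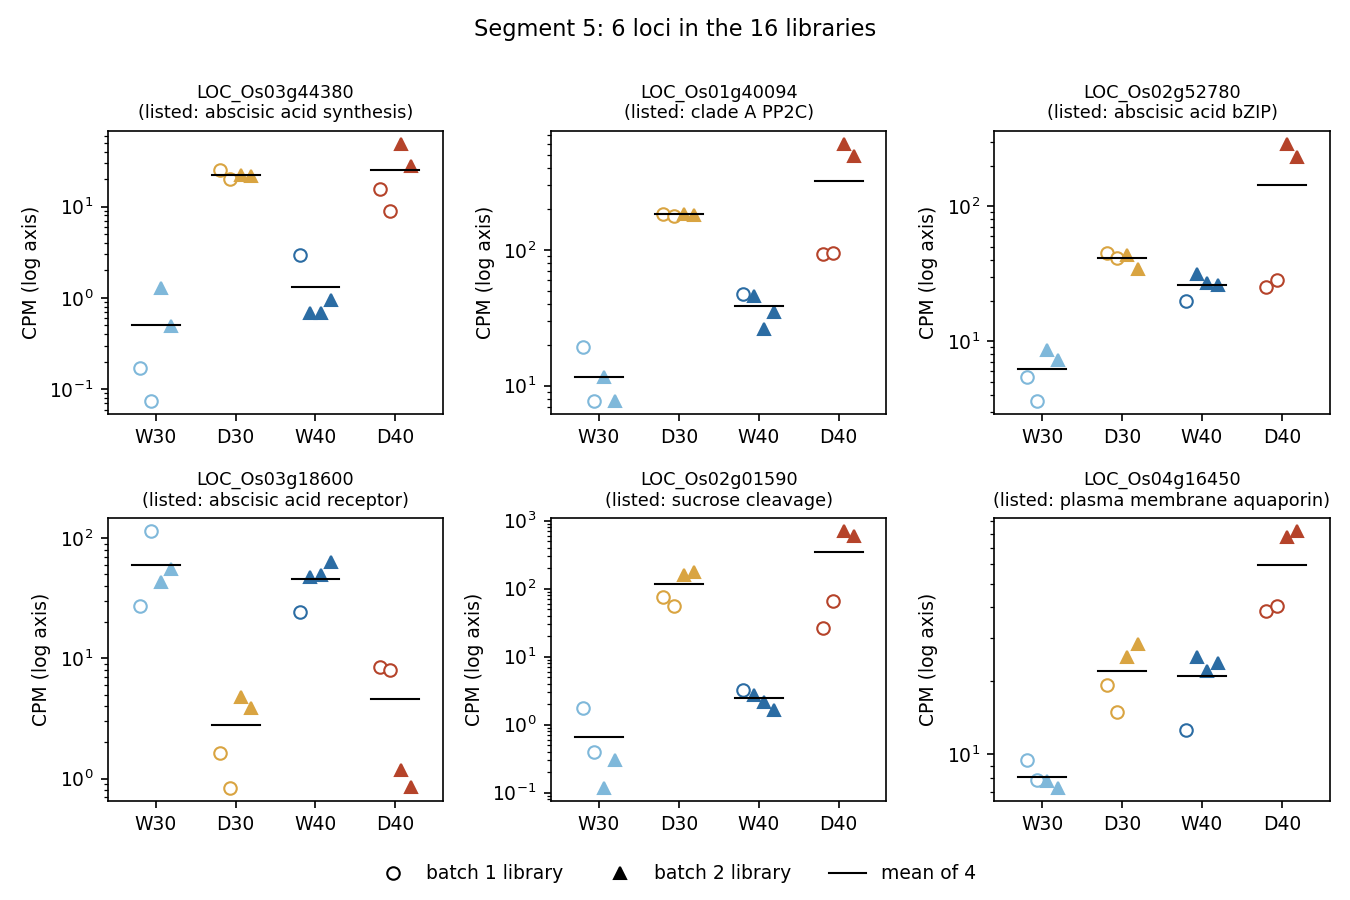
CPM (log axis) of 6 listed loci in the 16 libraries of segment 5, by group. Circles are batch 1, triangles batch 2 and lines the means of 4. D40 lies above W40 in 4 panels without overlap and below it for the receptor locus LOC_Os03g18600. For the bZIP locus LOC_Os02g52780 the batch 1 libraries of D40 lie inside the range of all W40 libraries and above W40 of batch 1.

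Dehydrins, LEA proteins and ASR proteins, which protect cell structures when water is lost, were mostly higher in D40. Of 10 loci tested, 7 were higher and 0 lower, beside 4.96% and 3.01% of all genes. Their median log2 change was 5.07, also when the locus at 0 in W40 is put at its bound. LOC_Os11g26780 read 0, 0, 0.0790 and 0 CPM in W40 and 0.915, 2.33, 172 and 159.9 CPM in D40. It was all but silent in W40, where only replicate 3 had any reads, and the batch 2 libraries of D40 were far above those of batch 1 (adjusted p = 1.44e-05). LOC_Os05g46480 read 0.0281, 0.170, 0.0198 and 0.0587 CPM in W40 and 0.0808, 0.489, 375 and 301 CPM in D40. D40 replicate 1 overlapped W40, and replicates 3 and 4 stood far above all others (log2 change 11.37 ± 1.09 (SE), adjusted p = 8.17e-05). LOC_Os11g26570 had 0 counts in W40 and read 0.0269, 0, 23.8 and 19.4 CPM in D40, at least 1328-fold higher against a floor of 3 counts over the group (adjusted p = 7.53e-05). The signal lay in D40 replicates 3 and 4. The neighbouring loci of the list, LOC_Os11g26750, LOC_Os11g26760 and LOC_Os11g26790, were also higher. The first 2 changed by 5.62 and 4.52 on the log2 scale, and the last had 6 counts in all of W40 and read 0.0269, 1.39, 753 and 775 CPM in D40. Reads shared between them and LOC_Os11g26780 could be split by the counting. The remaining call was LOC_Os03g20680, higher by 4.25 from very low levels. LOC_Os11g06720 read 546, 104, 101 and 108 CPM in W40 and 524, 374, 1037 and 1153 CPM in D40. In batch 1 its level was as high in W40 as in D40, and it was not called (adjusted p = 0.0576). Without D40 replicate 3 or 4 or W40 replicate 2, 3 or 4, 5 of the 10 were called.

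Of the stress transcription factors, edgeR called 0 of 7 DREB and 0 of 6 NAC loci, beside 7.97% of all genes. Lists this short can hold 0 calls at that share. Within batch 2, 3 NAC loci and 1 DREB locus were higher and 1 NAC locus lower, beside 17.3% and 15.5% of all genes. Among all genes 5625 of 22415 had an unadjusted p under 0.05, and DESeq2 called 1 locus of each list. Without D40 replicate 1 or 2 edgeR also called 1 of each, and without W40 replicate 1, 1 DREB locus. The DREB locus with the smallest p, LOC_Os06g03670, read 0.0562, 0.191, 0.119 and 0.0392 CPM in W40 and 0.0269, 0.0653, 3.88 and 1.10 CPM in D40. Its batch 2 libraries of D40 were high and those of batch 1 lay within or below W40 (adjusted p = 0.0688). The NAC locus LOC_Os01g66120 read 97.3, 198, 157 and 164 and 129.9, 116, 349 and 293 CPM, with the same split by batch (adjusted p = 0.0639). Its batch 1 libraries of D40 lay above W40 replicate 1, the W40 library of that batch. Among 6 loci for proline and glycine betaine, small molecules that hold water in cells, 1 was higher and 1 lower (4.96% and 3.01% of all genes). LOC_Os05g38150 read 44.98, 21.9, 26.95 and 25.7 CPM in W40 and 48.2, 48.2, 128 and 128.9 CPM in D40, without overlap but with D40 replicates 1 and 2 close to W40 replicate 1 (log2 change 1.57 ± 0.35 (SE), adjusted p = 0.0165). LOC_Os10g40360 read 1.18, 6.65, 9.08 and 7.88 CPM in W40 and 0.404, 0.946, 1.05 and 0.244 CPM in D40. All D40 libraries lay below W40 (log2 change -2.87 ± 0.59 (SE), adjusted p = 0.0112). Without D40 replicate 3 or 4 or W40 replicate 2, 3 or 4 the higher call was lost. Of 6 loci for trehalose and raffinose synthesis, edgeR called 0 and DESeq2 called 2 in each direction. LOC_Os07g48830 read 6.96, 0.913, 1.24 and 0.754 and 5.07, 5.58, 51.7 and 17.9 CPM, where W40 replicate 1 lay above D40 replicates 1 and 2 (adjusted p = 0.0502). It was called without any of these 3 libraries.

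The listed sugar loci leaned upward. Of 11 loci for the synthesis, transport and cleavage of sucrose, the sugar that leaves export, 5 were higher and 0 lower. The shares over all genes tested were 4.96% higher and 3.01% lower. LOC_Os02g01590 read 3.25, 2.73, 2.12 and 1.63 CPM in W40 and 26.7, 65.1, 706 and 587 CPM in D40. The groups lay far apart, and within D40 the batch 2 libraries were again the highest (log2 change 6.95 ± 1.08 (SE), adjusted p = 0.00273). LOC_Os12g29220 read 0.183, 2.88, 2.68 and 3.99 CPM in W40 and 1.13, 3.26, 59.4 and 36.9 CPM in D40. Within each batch D40 was above W40, by 3.57 in batch 1 and 3.92 in batch 2 on the log2 scale, although the pooled groups overlapped (log2 change 3.61 ± 0.53 (SE), adjusted p = 0.00210). LOC_Os02g30910 had 0 counts in W40 and read 0.0538, 2.59, 5.09 and 4.57 CPM in D40, at least 378-fold higher against the same floor (adjusted p = 0.00412). D40 replicate 1 was close to 0. Of the other members, LOC_Os03g07480 and LOC_Os11g31190 were higher by 1.43 and 3.104. Starch synthesis had 2 of 10 loci higher, beside the same 4.96% of all genes. LOC_Os06g51084 read 98.3, 84.8, 89.5 and 89.6 CPM in W40 and 143, 146, 128 and 132 CPM in D40. This was a small change shared by all libraries, equal in both batches at 0.56 (log2 change 0.56 ± 0.14 (SE), adjusted p = 0.0295). LOC_Os06g06560 read 14.04, 23.9, 10.6 and 18.2 CPM in W40 and 23.2, 33.9, 78.03 and 90.8 CPM in D40. The 2 groups touched through D40 replicate 1, while replicates 3 and 4 were well above (log2 change 1.81 ± 0.35 (SE), adjusted p = 0.00780). Leaving out any 1 of D40 replicates 3 and 4 or of the W40 libraries left 4 sucrose loci and 1 starch locus called.

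Water channels of the plasma membrane gave 1 higher locus of 9, where 4.96% of all genes were higher. LOC_Os04g16450 read 12.6, 25.1, 22.1 and 23.7 CPM in W40 and 38.8, 40.7, 77.7 and 82.3 CPM in D40. All D40 libraries were above all of W40, and the rise was of like size in both batches (log2 change 1.63 ± 0.21 (SE), adjusted p = 0.000792). The log2 change was 1.65 ± 0.20 within batch 1 (adjusted p = 0.00742) and 1.76 ± 0.13 within batch 2 (difference 0.11 ± 0.22, adjusted p = 0.835). It was called without any 1 of the 8 libraries. Without D40 replicate 1, D40 replicate 2 or W40 replicate 1, 2, 2 and 3 loci of the list were higher, and without the first of these 1 was lower. Among 4 tonoplast channels, which line the vacuole, edgeR and DESeq2 called 0, where edgeR called 7.97% of all genes. LOC_Os03g05290 read 430.2, 756, 456 and 665 and 303, 295, 1858 and 1963 CPM, with D40 below W40 in batch 1 and above it in batch 2 (adjusted p = 0.220).

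Of 19 cell wall loci, 8 were higher in D40 and 0 lower, beside 4.96% and 3.01% of all genes. The secondary wall loci rose from very low levels. All 3 secondary wall cellulose synthases, which build the thick walls of vessels and fibres, were called, with a median log2 change of 6.80. LOC_Os10g32980 had 0 counts in W40 and read 0.148, 0.0326, 2.46 and 3.38 CPM in D40, at least 185-fold higher (adjusted p = 0.00665). LOC_Os01g54620 read 0.141, 0.159, 0.158 and 0.0783 CPM in W40 and 0.660, 0.457, 3.66 and 5.02 CPM in D40. Both groups were low, and D40 replicates 3 and 4 were highest (log2 change 4.06 ± 0.86 (SE), adjusted p = 0.0135). LOC_Os09g25490 read 0.0141, 0.0425, 0.0198 and 0 CPM in W40 and 0.215, 0, 2.66 and 5.35 CPM in D40. D40 replicate 2 had no reads, which made the groups overlap, and W40 held only 7 counts in all (adjusted p = 0.0421). Of 6 cellulose synthases of the primary wall, laid down in growing cells, 2 were higher. LOC_Os07g24190 read 14.3, 13.002, 15.3 and 14.5 CPM in W40 and 30.3, 37.4, 36.1 and 32.3 CPM in D40. The 4 D40 libraries lay within a narrow range above W40, in both batches (log2 change 1.29 ± 0.34 (SE), adjusted p = 0.0343). LOC_Os07g10770 read 11.2, 3.58, 4.82 and 5.22 CPM in W40 and 20.3, 29.9, 36.95 and 28.1 CPM in D40. W40 replicate 1 was the W40 library nearest to D40 (log2 change 2.22 ± 0.53 (SE), adjusted p = 0.0240). Phenylpropanoid and lignin enzymes, which make the polymer that stiffens walls, had 3 of 10 loci higher. LOC_Os02g41630 read 9.29, 13.3, 30.2 and 18.6 CPM in W40 and 13.1, 25.5, 127 and 108 CPM in D40. D40 replicates 3 and 4 were far above the rest, and replicates 1 and 2 lay among W40 (log2 change 1.96 ± 0.45 (SE), adjusted p = 0.0184). LOC_Os02g41650 read 2.70, 13.4, 44.995 and 28.2 CPM in W40 and 8.33, 13.4, 100.1 and 89.99 CPM in D40, with the same overlap (log2 change 1.61 ± 0.37 (SE), adjusted p = 0.0203). In both loci, D40 replicates 1 and 2 lay above W40 replicate 1, the W40 library of their batch. These neighbouring loci may share reads. The last, LOC_Os02g08100, was higher by 1.44 ± 0.39 (adjusted p = 0.0384). The 3 lignin calls were lost without D40 replicate 3, D40 replicate 4, W40 replicate 2 or W40 replicate 4, and that of LOC_Os02g08100 also without W40 replicate 1 or 3. The 2 primary wall calls were lost without any of D40 replicates 3 and 4 and W40 replicates 2, 3 and 4, and that of LOC_Os07g24190 also without W40 replicate 1. Of the secondary wall loci, LOC_Os09g25490 was lost without the same 5 libraries and LOC_Os01g54620 without W40 replicate 3 or 4.

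Few heat genes were called for soil water once both batches were used. Of 67 loci in 7 heat lists, 4 were higher and 1 lower, a share near that of all genes (4.96% and 3.01%), although the median log2 change was 0.39. Among 10 cytosolic small heat shock proteins, LOC_Os01g04380 was called. It read 9.95, 248, 447 and 373 CPM in W40 and 56.98, 141, 1377 and 1912 CPM in D40. D40 was above W40 within each batch, while the pooled groups overlapped and batch 1 was low in both (log2 change 2.19 ± 0.55 (SE), adjusted p = 0.0281). LOC_Os04g01740 read 40.1, 3669, 4005 and 4434 CPM in W40 and 128, 549, 12344 and 12038 CPM in D40. This locus of the HSP90 and HSP100 list showed the same arrangement (log2 change 1.94 ± 0.46 (SE), adjusted p = 0.0211). Among 21 heat stress transcription factors, 2 were higher and 1 lower. LOC_Os06g35960 read 0.253, 0.297, 0.217 and 0.372 CPM in W40 and 0.579, 0.946, 23.4 and 13.9 CPM in D40. It was near 0 in W40, and the batch 1 libraries of D40 lay just above (log2 change 4.97 ± 0.96 (SE), adjusted p = 0.00818). LOC_Os07g08140 read 2.70, 5.44, 4.36 and 5.29 CPM in W40 and 5.33, 4.85, 21.6 and 24.8 CPM in D40. Only D40 replicates 3 and 4 left the range of W40 (log2 change 1.70 ± 0.36 (SE), adjusted p = 0.0125). D40 replicates 1 and 2 lay above W40 replicate 1, the W40 library of their batch. LOC_Os01g43590 read 0.422, 1.15, 0.455 and 0.734 CPM in W40 and 0.242, 0, 0.0925 and 0.0407 CPM in D40. All D40 libraries lay below W40, at low counts (log2 change -2.75 ± 0.70 (SE), adjusted p = 0.0298). No organelle small heat shock protein (6), HSP70 (8), cochaperone (6) or unfolded protein response locus (6) was called by edgeR, and DESeq2 called 1 lower in the first and last of these lists and 0 in the others. LOC_Os06g46900, the cochaperone locus with the smallest p, read 33.1, 579, 564 and 539 and 53.5, 98.3, 1309.9 and 1601 CPM. The batch 2 libraries of D40 stood above those of W40, and batch 1 was far below in both groups (adjusted p = 0.210).

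The number of heat loci called depended on the batch 1 libraries. All 10 cytosolic small heat shock proteins had a fitted change above 0. Their median log2 change was 1.79 within batch 1 and 1.25 within batch 2, and that of the organelle ones 2.07 and 1.24. In the other heat lists the medians lay between -0.17 and 0.31 within batch 1 and between -0.02 and 1.19 within batch 2. Within batch 2, 38 of the 67 were higher and 5 lower, against 17.3% and 15.5% of all genes, and within batch 1, 2 were higher (0.058%). The batch difference was called for 9 of them (higher in 4.76% of all genes), and in all 9 the change was further upward in batch 2. Without the batch 1 libraries at 40 °C, 8 of 10 cytosolic and 4 of 6 organelle small heat shock proteins, 12 of 21 transcription factors, 5 of 10 HSP90 and HSP100 loci and 4 of 6 cochaperones were higher, against 26.7% of all genes called in either direction. Without D40 replicate 1, 5 cytosolic and 3 organelle small heat shock proteins and 4 transcription factors were higher, and without D40 replicate 2, 2 organelle ones. The call of LOC_Os01g04380 was lost without D40 replicate 3, D40 replicate 4, W40 replicate 2 or W40 replicate 4, and that of LOC_Os04g01740 without D40 replicate 3 or 4 or W40 replicate 1, 2 or 3. LOC_Os07g08140 was lost without D40 replicate 3 or 4, and LOC_Os01g43590 without these or W40 replicate 2, 3 or 4.

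Of 43 photosynthesis loci tested, 1 was called, beside 7.97% of all genes. Of 17 light reaction loci, 9 of Rubisco and the Calvin cycle and 10 of chlorophyll synthesis, edgeR called 0, and DESeq2 called 1 higher in the first list and 2 lower in the second. The medians on the log2 scale were -0.10, -0.49 and -0.28, beside -0.00 for all genes. LOC_Os12g19381, a Rubisco list member, read 11058, 11000, 7801 and 7533 CPM in W40 and 8639.7, 8709, 4403 and 4529 CPM in D40. In each batch D40 lay below W40 (log2 change -0.69 ± 0.22, adjusted p = 0.0652). All 9 loci of that list had a fitted change below 0, between -0.76 and -0.17. Within batch 2, 4 of the 9 were lower, beside 15.5% of all genes. A locus of chlorophyll breakdown and senescence, LOC_Os03g45194, was higher. It read 19.9, 19.1, 19.96 and 18.6 and 20.5, 25.3, 28.7 and 33.4 CPM, without overlap (log2 change 0.51 ± 0.14 (SE), adjusted p = 0.0406), and was lost without any of D40 replicates 2 to 4 or W40 replicates 2 to 4. Without D40 replicate 1, 3 loci of this list were higher. Without the batch 1 libraries at 40 °C, 5 of its 7 loci were higher, and 4 Rubisco and Calvin cycle and 3 chlorophyll synthesis loci were lower. Of all genes, 26.7% were then called in either direction.

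Of 10 circadian clock loci edgeR called 0, beside 7.97% of all genes, while DESeq2 called 1, as did edgeR without W40 replicate 2. Within batch 2, 3 of the 10 were higher, beside 17.3% of all genes. A member split by batch. LOC_Os08g06110 read 24.1, 481, 329.9 and 407 CPM in W40 and 59.8, 50.02, 587 and 590.4 CPM in D40. The batch 1 libraries were low in both groups, as they were at 30 °C (28.8 to 74.8 CPM, against 316 to 516 CPM in batch 2). LOC_Os02g40510 of the same list, chosen after its values were seen, ran the other way, at 101, 10.4, 8.96 and 10.02 and 129.6, 119, 11.02 and 11.1 CPM. The labels give the same midday collection for all leaves. The part of this difference in the results was not tested.

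Elsewhere single loci differed, where 4.96% of all genes were higher and 3.01% lower. Among 11 ascorbate peroxidases, catalases and superoxide dismutases, which remove reactive oxygen, LOC_Os02g02400 was lower. It read 918, 125, 237 and 268 and 291, 242, 53.8 and 37.8 CPM, below W40 within each batch though the pooled groups overlapped (log2 change -2.002 ± 0.42 (SE), adjusted p = 0.0120). An alternative oxidase locus of 3, LOC_Os02g47200, was higher by 0.56 ± 0.15 (adjusted p = 0.0361). Of 8 JAZ repressors of jasmonate signalling, LOC_Os03g08310 was lower, at 1.05, 1.13, 0.810 and 1.81 and 0.215, 0.261, 0.474 and 0.407 CPM without overlap (log2 change -1.66 ± 0.48 (SE), adjusted p = 0.0463). This call was lost without any 1 of the 8 libraries. Of 6 loci for nitrate reduction and ammonium assimilation, LOC_Os03g12290 was lower, at 21.7, 28.8, 28.99 and 25.7 and 16.4, 11.9, 7.32 and 4.78 CPM, with the batch 2 libraries of D40 lowest (log2 change -1.37 ± 0.34 (SE), adjusted p = 0.0283). Type A response regulators gave 0 calls of 6 by edgeR and 3 lower by DESeq2. LOC_Os02g35180 read 142, 189, 147 and 119 and 113, 94.7, 32.4 and 21.7 CPM, with no overlap and a large drop in batch 2 alone (adjusted p = 0.0562). Within batch 2, 5 of the 6 were lower, and in 5 the batches differed. Without the batch 1 libraries at 40 °C, 5 of the 6 were lower, and without D40 replicate 1, D40 replicate 2 or W40 replicate 1, 2, 2 and 3 were. The calls of LOC_Os02g47200 and LOC_Os03g12290 were lost without D40 replicate 3 or 4 or W40 replicate 3 or 4, and the former also without W40 replicate 2. The call of LOC_Os02g02400 was lost without D40 replicate 4, and without D40 replicate 1 or W40 replicate 1, 4 and 3 loci of its list were higher.

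**Figure D3:**
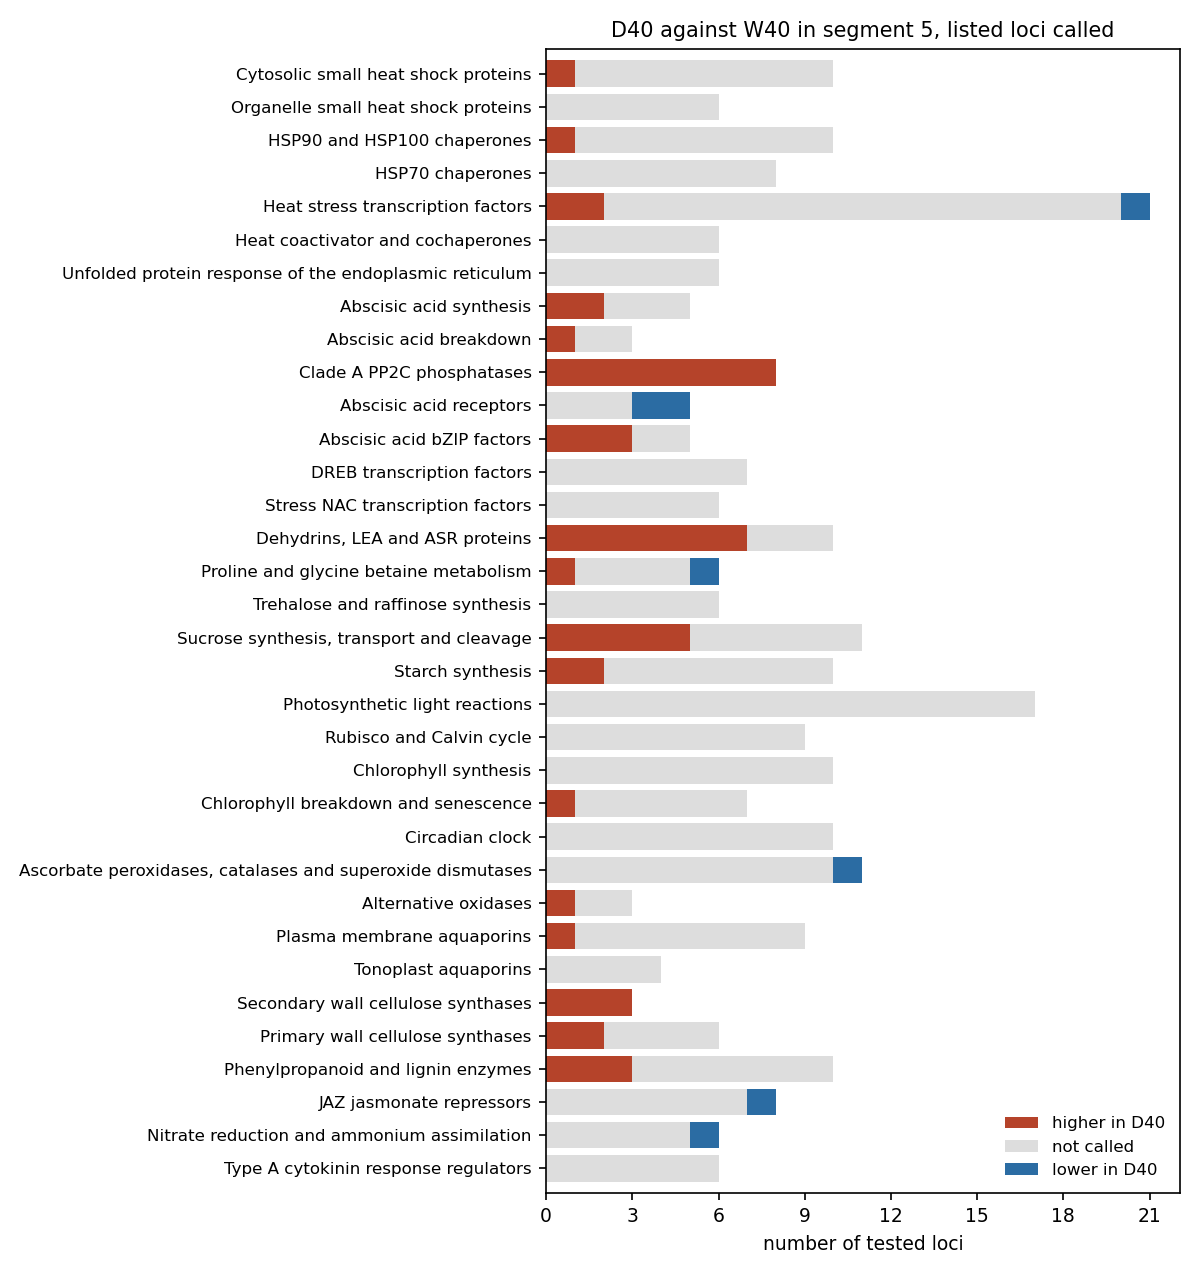
Number of tested loci (x axis) called higher, called lower or not called in D40 against W40, for 34 gene lists. All 8 PP2C and all 3 secondary wall loci were higher, as were 7 of 10 dehydrin, LEA and ASR loci, while the photosynthesis and chaperone lists were mostly not called. Of all genes tested, 7.97% were called.

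**Figure D4:**
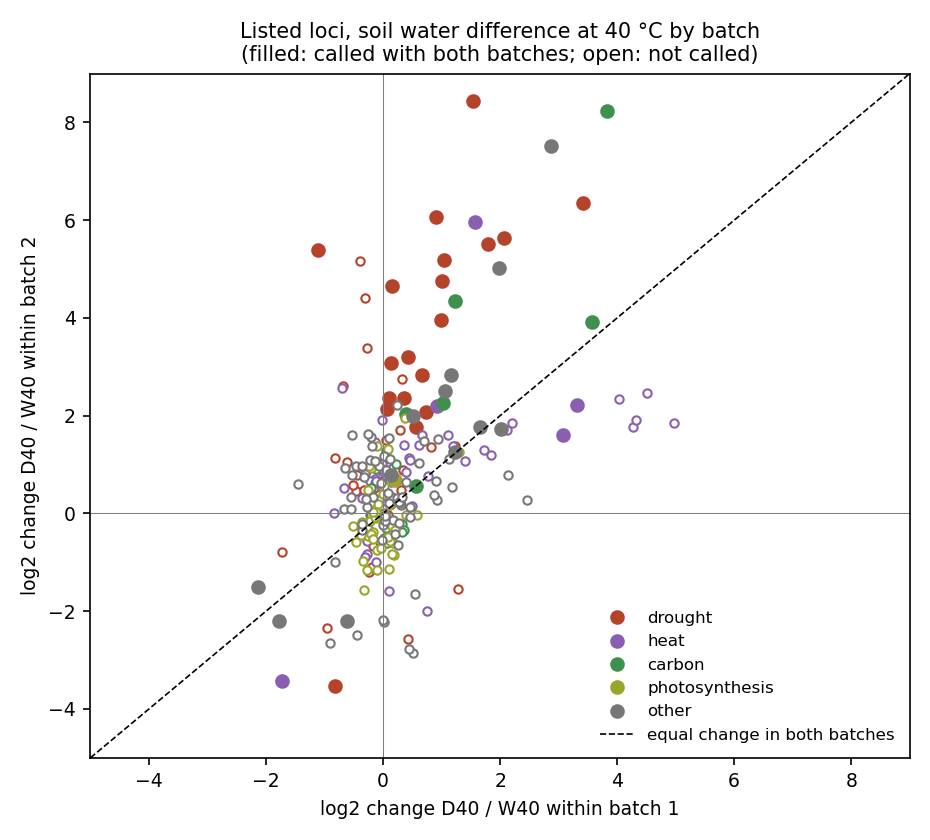
Log2 change of D40 against W40 within batch 1 (x axis, 1 W40 and 2 D40 libraries) and within batch 2 (y axis, 3 and 2 libraries) for 254 listed loci. Filled points were called with both batches and the dashed line marks equal changes. Of the 38 loci drawn that were called higher, 35 lie above the line. These loci were chosen on the same libraries, so this count is a description. Not drawn are 11 loci with 0 counts in a group of a batch and 3 outside the axes.

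The same soil water contrast without heat gave 1565 calls (6.98%), 886 higher (3.95%) and 679 lower (3.03%). Of the 1786 genes called at 40 °C, 710 (39.8%) were also called at 30 °C in the same direction, which was 45.4% of the calls at 30 °C, and 2 were called in opposite directions. The 2 contrasts share no library. The difference between the contrasts, the interaction of drought and heat, was called by edgeR for 0 genes, with 1672 at an unadjusted p under 0.05, and by DESeq2 for 128. Without W40 replicate 1 edgeR called 12 interactions, without D40 replicate 3 it called 2 and without W30 replicate 2, 1. The count at 30 °C was 1018 or 878 without D30 replicate 3 or 4 and 781 or 728 without W30 replicate 3 or 4.

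Within batch 1, drought at 30 °C changed 1134 genes (5.06%, with 2.94% higher and 2.11% lower), and 80% of these had the same sign at 40 °C in that batch. Their median log2 change was 1.52 in size at 30 °C and 0.41 at 40 °C, taken in the direction at 30 °C. Within batch 2, drought at 30 °C changed 4696 genes (21%, with 12% higher and 8.96% lower), of which 89.5% had the same sign at 40 °C. The same medians were 1.17 and 0.87 there. Both sets of genes were chosen on their values at 30 °C, so the medians are a description. The batch 1 count was 564 or 504 without D30 replicate 1 or 2, and the batch 2 count 2957 or 2175 without D30 replicate 3 or 4 and 2116 or 2525 without W30 replicate 3 or 4. The PP2C locus LOC_Os01g40094 read 19.3, 7.73, 11.6 and 7.71 CPM in W30 and 185, 178, 185 and 182 CPM in D30, so the batches were alike in D30, unlike in D40. The interaction tested within batch 2 alone, chosen after seeing the data, was called for 843 genes (3.76%), with 368 higher (1.64%) and 475 lower (2.12%). Of the drought lists 8 loci were higher and 1 lower, and of the heat lists 4 were lower. In batch 2 the fitted change with drought was above 0 at both temperatures in the 4 heat loci, and smaller at 40 °C. In the 8 drought loci it was larger at 40 °C or went from below 0 to above 0. The cochaperone locus LOC_Os06g46900 changed by 3.26 at 30 °C and 1.38 at 40 °C in batch 2 (difference -1.88 ± 0.31, adjusted p = 0.00605), and the NAC locus LOC_Os01g66120 by -0.53 and 0.89 (adjusted p = 0.00663). Without W30 replicate 3 or 4 the count was 256 or 272, without D30 replicate 3 or 4 it was 280 or 291, without D40 replicate 4 or W40 replicate 4 it was 536 or 492, and without W30 replicate 1 or 2 it was 1296 or 1300.

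Along the leaf, the drought response of segment 5 differed from that of segment 2 in the largest number of genes. With all pools, edgeR called no gene as differing from segment 4 or 6, and with the batch 2 pools alone it called 14 against segment 6. The same contrast called 2017 genes in segment 2 (9.01%, with 6.21% higher and 2.81% lower) and 1775 in segment 3 (8.01%, 5.4% and 2.61%). It called 1642 in segment 4 (7.35%, 4.18% and 3.17%) and 2829 in segment 6 (12.6%, 6.89% and 5.67%). Called in the same direction in segment 5 were 980, 1068, 1076 and 1348 of these, in that order, or 54.9%, 59.8%, 60.2% and 75.5% of the 1786 and 48.6%, 60.2%, 65.5% and 47.6% of the calls in the other segment. In all 5 segments 628 genes (35.2% of the 1786) were called, and 195 in segment 5 alone. These segments come from the same leaf pools, so such overlap is no independent support.

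The difference between segments was tested with the leaf pool as a block. Against the mean of the other 4 segments, edgeR and limma-voom called 0 genes, with 1135 at an unadjusted p under 0.05 in edgeR. Against segment 4 and segment 6 both also called 0 (585 and 1093 at an unadjusted p under 0.05), and against segment 3 edgeR called 0 (1977) and limma-voom 11. With the batch 2 pools alone, edgeR called 39 against the mean, 443 against segment 3, 14 against segment 6 and 0 against segment 4. Without the pool W40 replicate 1, it called 6 against the mean and 211 against segment 3. Against segment 2, a test added like that for segment 3 after seeing the data, 332 genes (1.37%) differed, 155 with a higher (0.641%) and 177 with a lower (0.732%) change in segment 5. With the batch 2 pools alone this was 1692.

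Among listed loci, the PP2C loci LOC_Os01g40094 and LOC_Os03g16170 rose more in segment 5 than in segment 2. The log2 change of LOC_Os01g40094 was 3.00 in segment 5 and 2.15 in segment 2 (difference 0.95 ± 0.18, adjusted p = 0.00218). Lignin enzymes did the reverse, with 4 of 10 lower against segment 2. LOC_Os02g41630 changed by 1.96 in segment 5 and 4.10 in segment 2 (difference -2.02 ± 0.30, adjusted p = 4.29e-05), and LOC_Os02g41650 by 1.61 and 3.64 (adjusted p = 0.0277). The number of genes that differed from segment 2 was 142, 136, 80 and 46 without the pools D40 replicate 3, D40 replicate 4, W40 replicate 3 and W40 replicate 4, and 1192 without W40 replicate 1.

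**Figure D5:**
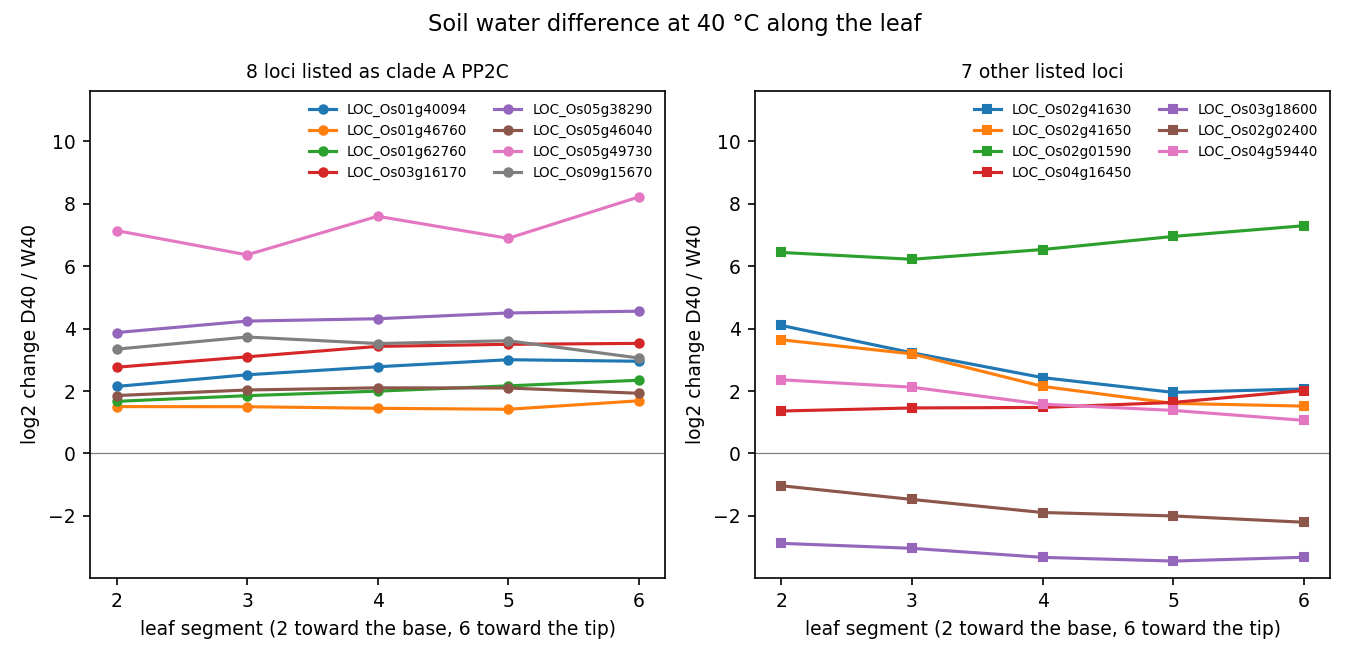
Log2 change of D40 against W40 (y axis) in segments 2 to 6 (x axis) for 8 PP2C loci (left) and 7 other listed loci (right). Each point is fitted to the 16 libraries of a segment. LOC_Os01g40094 goes from 2.15 in segment 2 to 3.00 in segment 5, and the lignin locus LOC_Os02g41630 from 4.10 to 1.96.

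Among genes with a mean of at least 5 CPM and no overlap of the groups, the largest rises were in LOC_Os11g26780 and LOC_Os02g01590, described with their lists. The largest falls were in a pair of unlisted loci. LOC_Os11g15624 read 1.77, 67.7, 68.1 and 43.9 CPM in W40 and 0.525, 0, 0 and 0 CPM in D40. W40 replicate 1 was low and the batch 2 libraries of W40 high, and D40 was close to 0 throughout (log2 change -7.06 ± 1.30 (SE), adjusted p = 0.00652). LOC_Os01g72370 read 3.70, 109.9, 124 and 91.1 CPM in W40 and 0.713, 0, 0.127 and 0.0813 CPM in D40. The arrangement was the same (log2 change -6.88 ± 1.16 (SE), adjusted p = 0.00423). Both were also near 0 in D30, at up to 0.224 CPM, and at 8.88 to 233 CPM in W30. Their change was larger than in segment 2, where it was -2.66 and -1.75 and not called (differences -5.08 ± 0.65 and -5.32 ± 0.70, adjusted p = 2.26e-06 and 4.28e-06). In segments 3, 4 and 6 LOC_Os11g15624 changed by -5.17, -5.81 and -7.25, and LOC_Os01g72370 by -4.30, -5.87 and -7.42. Neither locus was called as differing between segment 5 and segments 3, 4 or 6. Both were picked for their fall in segment 5, so the comparison with segment 2 is a description.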

How the data were processed

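Per the labels' protocols, poly(A) RNA was made into Nextera XT libraries and sequenced as 100 bp paired-end reads. The deposited raw counts per gene were used; per the submitters' processing notes HISAT2 2.2.1, featureCounts 2.0.6 and Picard 3.1.0 were used, with the build not given in the sources used here. Of the raw counts from 1 to 20 in these libraries, 75.6% were even; how the counter treated read pairs was not stated. The authors also deposited batch-corrected counts, which enter as estimated counts, and batch-corrected FPKM values; how they were corrected is not stated, and both served as alternatives only.

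The members and gene lists were chosen with earlier results of these data known. Raw counts were tested with edgeR 4.0.16 (R 4.3.3; quasi-likelihood test, TMM scaling, low-count filter with a minimum count of 10 and a minimum total of 15, Benjamini-Hochberg adjusted p under 0.05), on the 16 libraries of segment 5 with treatment and batch as terms. CPM values and the values after the sign ± (SE of the log2 change) for D40 against W40 over both batches come from this fit. Within-batch tests used 1 mean for each treatment and batch, so a lone library was assumed to vary like the other groups. Segments were compared over all 80 libraries with the leaf pool as a block. Differences between segments and their SE come from that fit, so they need not equal the difference of the changes printed per segment. No pair of libraries of the same group agreed within sampling noise (lowest chi-square per gene 32.31 over 24 pairs). Pairs across groups were not checked. The test was tried on simulated counts first.

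The rule for named loci took up to 3 members of each list by adjusted p and the 2 largest rises and falls. For length, where fewer than 3 were called only the called ones are described, or the 1 with the smallest p where none was. This narrowing was made after values were seen, as was the naming of any other locus. No locus ID was found in the RefSeq gene table, and 2 of the 290 listed IDs were not found in the counts. Alternatives were RLE size factors, no filter, DESeq2 1.42.0, other batch and replicate terms, fewer libraries, and limma 3.58.1 on log2(FPKM + 0.1 or 1). Intervals are not given for single counts, and totals of 56490982 to 114370194 per library limit the precision of loci under 1 CPM.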

Additional observations from a re-analysis of the deposited data

Results flagged for a closer look

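Of 108 sets of 4 libraries (W40 or D40, for the named loci), 6 held a library whose gap to the nearest other exceeded Dixon's critical value as a share of the range, where chance gives about 1 in 20. W40 held 5 of the 6, and 4 were W40 replicate 1, the sole W40 library of batch 1. In that library LOC_Os06g46900 (cochaperone list) was low at 33.1 CPM, while LOC_Os03g44380 (abscisic acid synthesis) was high at 2.92 CPM, LOC_Os08g36860 (abscisic acid breakdown) at 14.8 CPM and LOC_Os07g48830 (trehalose and raffinose) at 6.96 CPM. LOC_Os11g26780 stood out in W40 replicate 3 at 0.0790 CPM, where the other W40 libraries had 0, and LOC_Os11g15624 in D40 replicate 1 at 0.525 CPM, where the other D40 libraries had 0. The part of batch in these values was not tested.

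The drought difference at 40 °C in segment 5 differed from that in segment 2 for 332 genes by edgeR's test with the leaf pool as a block. Among the named loci the difference was 0.95 on the log2 scale for LOC_Os01g40094 (PP2C), -1.25 for LOC_Os04g59440 (light reactions), -0.93 for LOC_Os02g02400 (ascorbate peroxidases, catalases and superoxide dismutases), -2.02 for LOC_Os02g41630 and -1.79 for LOC_Os02g41650 (lignin enzymes), and for the unlisted LOC_Os11g15624 and LOC_Os01g72370 it was -5.08 and -5.32. The adjusted p of these 7 loci ran from 2.26e-06 to 0.0491.

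Within batch 2 the drought difference at 40 °C differed from that at 30 °C for 843 genes by edgeR. Among the named loci it was -1.88 on the log2 scale for LOC_Os06g46900, 1.33 for LOC_Os08g36860, 1.03 for LOC_Os09g28310 (bZIP), 1.42 for LOC_Os01g66120 (NAC) and 0.76 for LOC_Os03g45194 (chlorophyll breakdown), with adjusted p from 0.00605 to 0.0493.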

How the results depend on the processing

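Of 56 named loci, 55 kept the sign of their change under all 17 to 20 alternatives, and 9 of the 42 called were called under all of them. LOC_Os08g06110 reversed to -0.51 with a replicate block in place of the batch term. Deviations from the group means of same-numbered W40 and D40 libraries correlated at 0.671, -0.514, 0.445 and 0.502, and not every library correlated best with its own number. Batch was not removed from these deviations. The negative value joins W40 replicate 2 of batch 2 with D40 replicate 2 of batch 1. The check therefore cannot show whether replicate numbers pair the libraries. With the replicate block beside the batch term, 467 genes were called (230 higher, 237 lower) in place of 1786, and 696 with the block in place of batch.

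For drought at 40 °C the count was otherwise 3345 with DESeq2, 446 without a batch term, 6111 without the batch 1 libraries at 40 °C (3175 higher, 2936 lower), 1301 with FPKM + 0.1 (622 higher, 679 lower), 1132 without its filter (593 higher, 539 lower), 1037 with FPKM + 1 (546 higher, 491 lower), and 569 to 2652 with 1 library left out. The cause was not tested. Within batch 1 it was 275 with DESeq2, 227 without the filter and 0 to 48 with 1 library left out, and within batch 2 4993 to 7342. The batch difference was called for 2981 genes with DESeq2 and 863 to 1829 with 1 library left out.

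At 30 °C the count was 2790 with DESeq2, 395 without a batch term, 868 with the replicate block beside batch, 650 with it in place of batch, and 728 to 1863 with 1 library left out. Within batch 1 it was 1980 with DESeq2 and 504 to 1403 with 1 left out, and within batch 2 2116 to 5371. The interaction gave 33 calls on corrected counts, 128 with DESeq2, 49 with FPKM + 0.1, 40 without its filter, 106 with FPKM + 1, 13 without the count filter and 0 to 12 with 1 library left out. Within batch 2 it gave 1964 with DESeq2, 1488 without the filter and 256 to 1300 with 1 left out.

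Against segment 2 the count was 1692 in batch 2 pools, 687 with limma-voom and 46 to 1192 with 1 pool left out, and against segment 3 it was 443, 11 and 0 to 211. In batch 2 pools alone it was 14 against segment 6 and 39 against the mean, which gave 0 to 6 with 1 pool left out. Segments 4 and 6 gave 0 with any 1 pool left out. The heat check gave 53 to 56 loci in W and 52 to 55 in D with 1 library left out. Of the counts per list, 302 moved by more than 1.5 times and 437 did not, and among changes of named loci 226 lost their call and 67 gained one.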
